A study of Homo sapiens with 27 samples.

Results

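Hypoxia response and glycolysis genes were followed gene by gene in prostate cancer cells carrying guide RNAs against RIPK2, a kinase that relays signals from the intracellular bacterial sensors NOD1 and NOD2. The group comprised 39 genes, taken by symbol from the read count tables, out of 27546 symbols listed in at least 1 of the 3 tables, and all 39 were listed in every table. Transcripts were counted in 27 bulk libraries of 3 human lines: 22Rv1, derived from a prostate cancer xenograft and known to express the androgen receptor, DU145, derived from a brain metastasis, and PC3, derived from a bone metastasis. Each line had 3 control libraries (control gRNA #1, genotype WT), 3 with RIPK2 gRNA #10 (genotype RIPK2 knockout, called gRNA10) and 3 with another RIPK2 guide under the same genotype label, gRNA #1 in 22Rv1 (gRNA1) and gRNA #2 in DU145 and PC3 (gRNA2). Oxygen level, passage and whether a population was a clone or a pool are not given in the sources used here, and nothing says that the 3 libraries of a group came from separate cultures, so the p-values measure the spread between these libraries, which may be technical.

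When oxygen is ample, prolyl hydroxylases mark the alpha subunits of hypoxia-inducible factor (HIF) for destruction through the VHL ubiquitin ligase. When oxygen falls, the alpha subunit persists, pairs with ARNT and binds a short DNA element in genes for glucose uptake, glycolysis, acid export, vessel growth, collagen modification and mitophagy. Many cancer cells keep glycolysis high even in air, and most of the genes below are shared between the hypoxia response and that program, while their levels also answer to MYC, to stress pathways and to nutrient supply.

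The element bound by HIF has the core ACGTG or GCGTG. Promoter stretches of some named members are shown here because they carry those letters, CA9 among them although it was too low to be tested. Picked in this way, they do not stand for all members that changed. RefSeq promoters of GRCh38.p14, from 250 bases before to 50 bases after the gene start, were found for 35 of the 39 members. ACGTG occurred on either strand in 15 of the 35 (42.9%), against 21.4% of 35116 promoters of the same length. GCGTG occurred in 17 (48.6%), against 36.5%. Either motif occurred in 26 members (74.3%), against 48.4% of all promoters. CACGTG, the palindrome that is also the MYC E-box, reads as ACGTG on both strands and is counted as 2 matches. The stretches below run 5′ to 3′ on the strand of the gene, with matches on either strand in capitals (CACGT and CACGC are ACGTG and GCGTG on the opposite strand), and begin and end 10 bases outside the first and last match upstream of the start.
LDHA, chr11:18394368-18394504, plus strand: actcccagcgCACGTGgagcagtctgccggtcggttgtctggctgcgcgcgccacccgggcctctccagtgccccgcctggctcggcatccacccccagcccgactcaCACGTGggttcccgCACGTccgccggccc
PGK1, chrX:78104027-78104079, plus strand: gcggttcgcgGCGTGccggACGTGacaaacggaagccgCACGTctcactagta
BNIP3, chr10:131982013-131982076, minus strand: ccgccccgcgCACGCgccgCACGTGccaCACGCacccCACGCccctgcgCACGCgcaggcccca
HK2, chr2:74833888-74834093, plus strand: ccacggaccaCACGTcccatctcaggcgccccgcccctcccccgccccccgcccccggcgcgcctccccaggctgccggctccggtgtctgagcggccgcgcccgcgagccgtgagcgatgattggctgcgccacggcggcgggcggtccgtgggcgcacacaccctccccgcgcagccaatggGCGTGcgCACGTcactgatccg
CA9, chr9:35673900-35673924, plus strand: gtttccaatgCACGTacagcccgta
LDHA held 5 matches in its stretch, PGK1 3, BNIP3 6, HK2 3 and CA9 1. A match describes the letters of the window and does not show that a factor binds there. Neither motif was found in the windows of 9 members, among them EGLN3, PFKP, PDK1, SLC16A3 and P4HA2, which says only that these letters are not in those windows.

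Library totals ran from 17958558 to 20650819 counts. Levels are given as CPM, the usual depth-scaled count unit, taken here on the library size after TMM scaling (factors 0.902 to 1.04), and 3 counts, the limit that a count of 0 allows, correspond to 0.144 to 0.178 CPM, for counting error only. RIPK2 was lower in every library of every knockout group than in the controls of its line: it fell by 0.94 ± 0.12 (log2, SE) with gRNA1 and by 1.63 ± 0.12 with gRNA10 in 22Rv1, by 1.84 ± 0.12 with gRNA2 in DU145, and by 1.55 ± 0.056 and 1.15 ± 0.053 with gRNA2 and gRNA10 in PC3. In DU145 with gRNA10 the RIPK2 change of -0.29 ± 0.11 missed the threshold in edgeR (adjusted p = 0.0614) and passed it in DESeq2 (0.0454), with the gRNA2 group left out of the fit (0.000576) and without any 1 gRNA2 library (0.014 to 0.0311). Epithelial markers were present in all groups (5 of 5 at 1 CPM or more). Of 6 prostate luminal markers, 6 reached 1 CPM in 22Rv1, 1 in DU145 and 3 or 4 in PC3, with KLK2 at 0 in all 3 PC3 groups. The 9 markers of blood, vessel and stromal cells summed to between 5.75 and 81.7 CPM, with 1 to 3 of the 9 at 1 CPM or more and MS4A1 at 0 in all 9 groups. A library of each of 2 groups stood apart: replicate 3 of gRNA2 in DU145 was the highest of the 9 DU145 libraries for 19 of 38 members, and replicate 3 of gRNA1 in 22Rv1 had 16.6% of its counts on mitochondrial genes, whereas the lowest share in 22Rv1 was 0.515%. Replicate 2 of gRNA2 in DU145 was the lowest of the 9 for 14 of 38 members. Values of that group without replicate 3 therefore give this low library more weight. In bulk libraries, fewer cells with a transcript and less of it per cell cannot be told apart.

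A gene was called higher or lower at an adjusted p below 0.05 (edgeR's quasi-likelihood test, Benjamini-Hochberg over all genes of the contrast), and 37 members were tested in 22Rv1, 38 in DU145 and 37 in PC3. In PC3 the members went mostly down. With gRNA2, 23 of 37 were lower (62.2%) and 6 higher (16.2%), against 31.5% of all 14718 genes lower and 32.1% higher. With gRNA10, 25 were lower (67.6%) and 9 higher (24.3%), against 35.6% and 37.9% of all genes. In DU145 more members were higher than lower. With gRNA2, 11 of 38 were higher (28.9%), against 17.1% of all 14908 genes, and 0 were lower in edgeR, in DESeq2 and at an unadjusted p below 0.05, against 17.0%. With gRNA10, 16 were higher (42.1%) and 3 lower (7.89%), against 20.2% and 19.8% of all genes. In 22Rv1 the directions were mixed. With gRNA1, 13 of 37 were higher (35.1%) and 10 lower (27%), against 25.6% and 22.9% of all 15198 genes. With gRNA10, 13 were higher (35.1%) and 5 lower (13.5%), against 20.0% and 20.6%. The contrasts of a line share its control libraries, so that the calls of its guides are not independent of each other.

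The median log2 fold change of the members tested was -0.22 with gRNA2 and -0.51 with gRNA10 in PC3, 0.28 with either guide in DU145, and -0.075 with gRNA1 and 0.17 with gRNA10 in 22Rv1, where the median of all genes lay between -5.62e-06 and 0.0244 in these contrasts. The count of 5 lower members in 22Rv1 with gRNA10 became 2 without control replicate 3 or without any of the 3 gRNA10 libraries, 3 without control replicate 1 and 9 without gRNA1 replicate 3 (29.1% of all genes lower) or with only the groups compared in the fit (28.1%). In DU145 with gRNA10 the 16 higher and 3 lower members became 27 and 5 with only the groups compared, where 33.3% of all genes were higher and 32.9% lower. In DU145 with gRNA2 the 11 higher members became 18 without gRNA2 replicate 2 (19.7% of all genes higher), and the 0 lower members became 4 without gRNA2 replicate 3 (22.7% of all genes lower) and 1 without gRNA2 replicate 1 (16.7%). The heat map sets the changes of all members side by side.

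**Figure D1:**
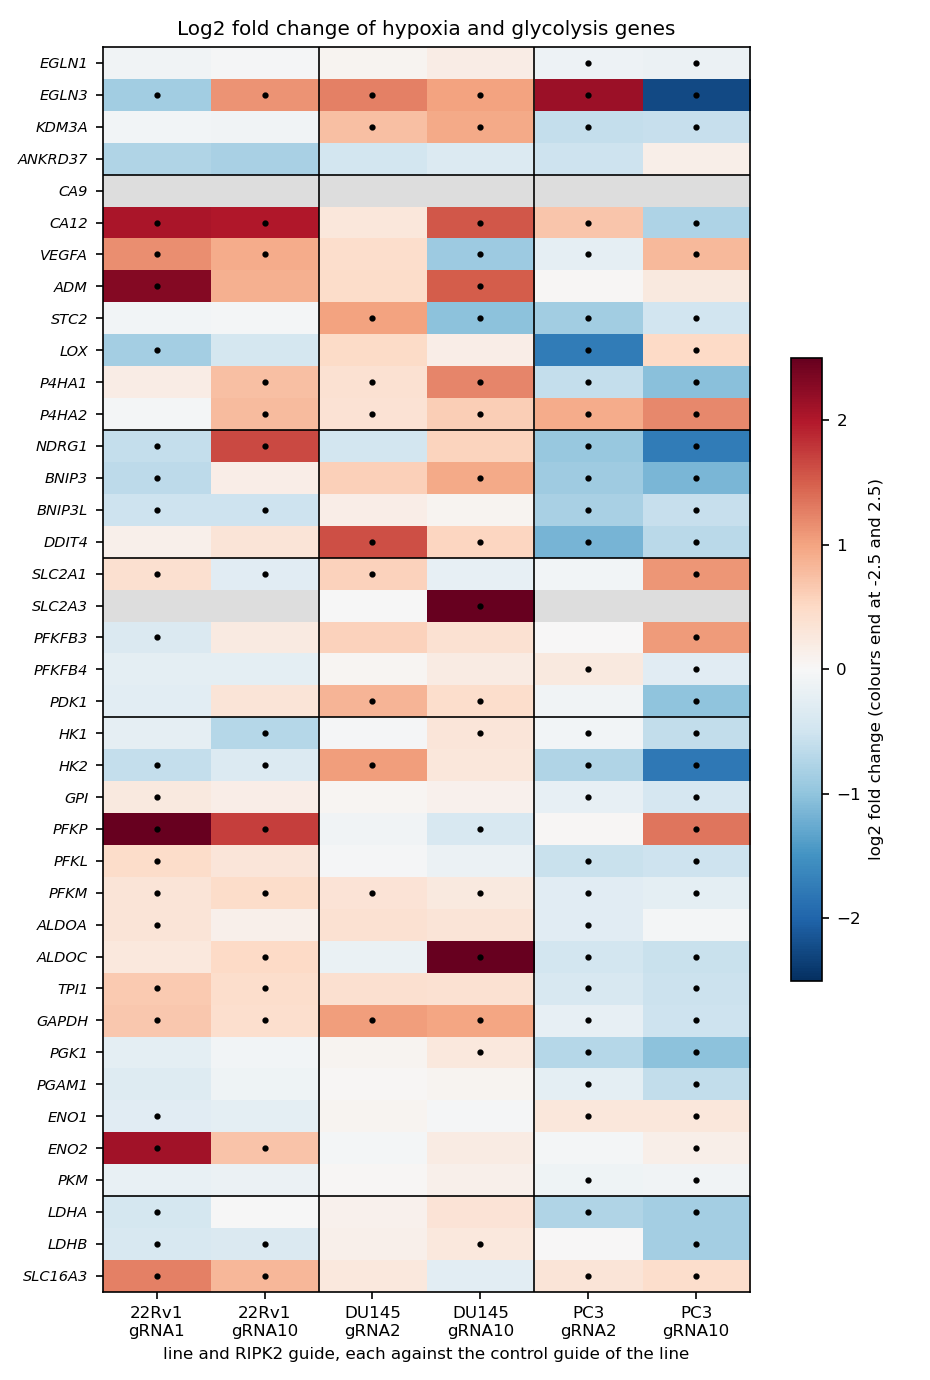
Log2 fold change of each of the 39 members (rows, in order of role, with lines between the 6 roles) for each RIPK2 guide against the control of its line (columns), with a dot where the adjusted p was below 0.05 and grey where a gene was not tested. The PC3 columns hold 23 and 25 lower calls, and the DU145 columns 11 and 16 higher calls.

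Genes of oxygen sensing and HIF feedback came first. EGLN1 (PHD2) is the main prolyl hydroxylase that marks HIF alpha, EGLN3 (PHD3) is its strongly hypoxia-inducible relative, KDM3A is a histone demethylase induced by HIF, and ANKRD37 is a small HIF target of little-known function. EGLN3 was called in all 6 guide contrasts, but not in the same direction, and its PC3 calls rested on few reads. In DU145 it was at 9.51, 9.83 and 10.6 CPM in the control, at 27.9, 22.8 and 20.5 with gRNA2 and at 18.4, 22.1 and 19.5 with gRNA10. Every knockout library lay above every control, and the changes were 1.25 ± 0.13 and 1.00 ± 0.13 (adjusted p = 0.000113 and 0.000239). In 22Rv1 EGLN3 was at 1.76, 1.72 and 1.66 CPM in the control, at 0.905, 1.14 and 0.773 with gRNA1 and at 3.41, 3.51 and 4.27 with gRNA10. The guides thus lay on opposite sides of the control (-0.86 ± 0.23 and 1.12 ± 0.2), and differed from each other by 1.98 ± 0.21 (adjusted p = 5.05e-05). In PC3 EGLN3 rested on few reads, 20 counts over the 3 control libraries, 90 with gRNA2 and 4 with gRNA10. It passed the filter on low counts there only through gRNA2, where it is highest, so its PC3 calls are no separate support. The ratio of gRNA2 to control was 4.46 (95% interval of the counts 2.72 to 7.64) and that of control to gRNA10 was 5.17 (1.73 to 20.8), again in opposite directions.

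KDM3A rose in DU145 and fell in PC3 with both guides. In DU145 it was at 44.4, 44.7 and 40.5 CPM in the control, at 56.8, 62.2 and 99.8 with gRNA2 and at 88.4, 80.1 and 81.7 with gRNA10. Every knockout library lay above every control, and the changes were 0.75 ± 0.18 and 0.95 ± 0.18. Without replicate 3 of gRNA2, the highest of the 9, the first of these was 0.47 ± 0.079 (adjusted p = 0.000334). In PC3 KDM3A was at 76.0, 77.8 and 76.9 CPM in the control, at 52.1, 49.2 and 50.7 with gRNA2 and at 48.3, 54.3 and 51.2 with gRNA10, a drop of 1.52-fold and 1.5-fold (adjusted p = 1.98e-12 and 1.93e-12). EGLN1 differed little: it lay between 51.9 and 76.1 CPM in all 22Rv1 libraries, and in PC3 it was lower by 1.09-fold with gRNA2 and 1.11-fold with gRNA10. In DU145 its gRNA10 libraries, at 187.6, 174.5 and 179.8 CPM, all lay above the control, at 154.9 to 162.5. That change of 0.18 missed the threshold (adjusted p = 0.057), but passed it in 5 of 14 alternative fits, DESeq2 among them. ANKRD37 was a low gene, under 3 CPM in all libraries, and passed the test in none of the 6 guide contrasts with all libraries, with the lowest adjusted p of 0.0529 in 22Rv1 with gRNA10, but did with PC3 gRNA2 and both 22Rv1 guides in at least 1 alternative fit.

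The second set controls acidity, vessel growth and matrix. CA9 and CA12 are membrane carbonic anhydrases that handle the acid of glycolytic cells, and VEGFA is the main growth factor for blood vessels. ADM encodes the vasodilator adrenomedullin, STC2 is a secreted glycoprotein, and LOX cross-links collagen. P4HA1 and P4HA2 are catalytic subunits of collagen prolyl 4-hydroxylases. CA9, a widely used tissue marker of HIF activity, was near the floor. It had at most 6 counts in any 22Rv1 library, and was too low to be tested in any line. In DU145 with gRNA10 it had 25 counts over 3 libraries (0.302, 0.549 and 0.400 CPM), against 6 in the control (0.048, 0.144 and 0.0976 CPM). The ratio was 4.33 with a 95% counting interval of 1.73 to 12.9, with no test across libraries. No ratio was computed for the other CA9 comparisons, some of which went the other way. In DU145 the control had 1, 3 and 2 counts, against 1, 0 and 0 with gRNA2. In 22Rv1 the control had 3, 0 and 6 counts, against 0, 1 and 0 with gRNA1 and 0 in every gRNA10 library. In PC3 the counts of the 3 groups overlapped.

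CA12 rose 4-fold in 22Rv1. It was at 9.81, 10.2 and 10.7 CPM in the control, at 39.7, 41.1 and 45.3 with gRNA1 and at 42.2, 41.3 and 40.1 with gRNA10. No knockout library came near a control, and the fitted folds were 4.10 (log2 2.04 ± 0.096) and 4.03 (2.01 ± 0.096), with adjusted p = 8.71e-08 and 9.75e-08. In PC3 the guides parted: the control was at 22.9, 23.1 and 22.1 CPM, gRNA2 at 37.8, 36.7 and 35.0 and gRNA10 at 12.8, 14.0 and 13.2. CA12 was thus higher by 1.61-fold with gRNA2 and lower by 1.70-fold with gRNA10, and gRNA10 minus gRNA2 was -1.46 ± 0.063 on the log2 scale (adjusted p = 4.47e-19). In DU145 it was at 6.28 to 6.39 CPM in the control and at 17.8, 18.8 and 19.0 with gRNA10, a rise of 2.93-fold. With gRNA2 the DU145 libraries were at 9.87, 9.60 and 3.60 CPM, so that the group lay on both sides of the control and missed the threshold (adjusted p = 0.468). Without replicate 3 the change with gRNA2 was 0.63 ± 0.10 (adjusted p = 0.000238).

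VEGFA differed in direction between lines and between guides. In 22Rv1 it was at 42.7, 42.7 and 45.4 CPM in the control, at 84.4, 79.6 and 131 with gRNA1 and at 81.2, 82.9 and 84.7 with gRNA10. Both groups lay above the control, by 2.25-fold (1.17 ± 0.17) and 1.90-fold (0.93 ± 0.16), and the first value was 0.90 ± 0.072 without replicate 3 of gRNA1. In DU145 it was at 288, 259 and 243 CPM in the control, 315, 284 and 461 with gRNA2 and 142, 143 and 136 with gRNA10. The gRNA2 group overlapped the control in edgeR (adjusted p = 0.0566; 0.037 in DESeq2, and 0.0123 without gRNA2 replicate 2), whereas gRNA10 was lower by 1.87-fold (-0.91 ± 0.16). In PC3 VEGFA was at 48.5, 47.3 and 47.6 CPM in the control, 40.9, 44.0 and 38.5 with gRNA2 and 81.1, 84.5 and 85.0 with gRNA10. It was lower by 1.16-fold with gRNA2 and higher by 1.75-fold with gRNA10 (adjusted p = 0.000522 and 1.15e-15).

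ADM in DU145 was at 32.8, 30.4 and 30.6 CPM in the control and at 88.4, 92.5 and 89.0 with gRNA10, a rise of 2.88-fold (1.52 ± 0.40, adjusted p = 0.0118). The gRNA2 libraries of DU145 were at 28.5, 19.2 and 80.7 CPM, and the change of 0.45 ± 0.40 became -0.39 ± 0.13 without replicate 3. The replicates of this group therefore did not share a direction for ADM. In 22Rv1 with gRNA1 ADM was at 1.44, 2.05 and 10.7 CPM, against 0.907, 1.13 and 0.804 in the control, and the change of 2.30 ± 0.67 became 0.87 ± 0.27 without replicate 3.

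STC2 and LOX moved in opposite directions with the guides of a line. STC2 in DU145 was at 105, 98.6 and 108 CPM in the control, at 196, 216 and 210 with gRNA2 and at 50.9, 54.0 and 48.6 with gRNA10. It was 2.00-fold higher with gRNA2 and 2.03-fold lower with gRNA10, and the difference between guides was -2.02 ± 0.081 (adjusted p = 1.18e-07). In PC3, where STC2 was highest, it fell with both guides, from 596, 600 and 594 CPM in the control to 342, 340 and 306 with gRNA2 and 422, 429 and 447 with gRNA10. LOX in PC3 was at 9.29, 6.92 and 9.84 CPM in the control, at 3.15, 2.37 and 2.27 with gRNA2 and at 12.1, 11.2 and 13.6 with gRNA10. That was 3.34-fold lower with gRNA2 (-1.74 ± 0.15) and 1.42-fold higher with gRNA10 (0.50 ± 0.11). In 22Rv1 LOX fell with gRNA1 (-0.84 ± 0.19, adjusted p = 0.00408), and in DU145 its control libraries ranged from 8.98 to 16.7 CPM and overlapped both knockout groups.

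The collagen prolyl hydroxylases parted in PC3. P4HA1 was at 251, 240 and 240 CPM in the control, at 168, 160 and 156 with gRNA2 and at 111, 124 and 121 with gRNA10. It fell by 1.51-fold and 2.05-fold (adjusted p = 1.25e-13 and 1.06e-19). P4HA2 was at 15.4, 15.1 and 14.6 CPM in the control, at 29.5, 26.96 and 28.7 with gRNA2 and at 35.4, 33.7 and 34.1 with gRNA10. It rose by 1.89-fold and 2.29-fold (0.92 ± 0.064 and 1.20 ± 0.062), so P4HA1 and P4HA2 went in opposite directions. Per kilobase of exon, P4HA2 made up 4.63% ± 0.0934 (SD, n = 3) of the P4HA1 and P4HA2 signal in control PC3, 12.2% ± 0.479 with gRNA2 and 18.6% ± 1.36 with gRNA10. In DU145 both rose: P4HA1 went from 91.0, 88.5 and 82.1 CPM to 112, 113 and 115 with gRNA2 and to 216, 196 and 200 with gRNA10 (1.3-fold and 2.34-fold). P4HA2 in DU145 was higher by 1.29-fold (0.37 ± 0.13) and 1.53-fold, and the first of these changes was 0.20 without gRNA2 replicate 3. In 22Rv1 P4HA1 and P4HA2 were higher with gRNA10 (1.69-fold and 1.74-fold), and neither passed the test with gRNA1, although P4HA1 did without control replicate 2 (adjusted p = 0.0252).

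Stress and mitophagy genes all fell in PC3, 4 of 4 with either guide, with a median log2 fold change of -0.91 in both contrasts, where 31.5% and 35.6% of all genes were lower. NDRG1 is a hypoxia- and androgen-responsive growth suppressor, BNIP3 and BNIP3L are mitochondrial receptors for mitophagy, and DDIT4 (REDD1) restrains mTORC1. NDRG1 in PC3 was at 415, 389 and 412 CPM in the control, at 216, 206 and 210 with gRNA2 and at 120, 117 and 124 with gRNA10. It fell by 1.92-fold and 3.37-fold (-0.94 ± 0.037 and -1.75 ± 0.038, adjusted p = 9.4e-20 and 1.08e-26). BNIP3, whose promoter stretch above holds 6 matches, was at 144, 132 and 142 CPM in the control, at 76.0, 73.6 and 77.4 with gRNA2 and at 65.8, 60.6 and 62.1 with gRNA10. It fell by 1.84-fold and 2.22-fold. DDIT4 was at 21.3, 17.7 and 19.4 CPM in the control, at 8.13, 8.72 and 9.34 with gRNA2 and at 12.8, 10.9 and 12.8 with gRNA10, a fall of 2.23-fold and 1.60-fold. BNIP3L fell by 1.75-fold and 1.5-fold.

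In DU145 DDIT4 went the other way. It was at 155, 130 and 139 CPM in the control, at 412, 424 and 472 with gRNA2 and at 190, 215 and 209 with gRNA10. All 6 knockout libraries exceeded the controls, and the rises were 3.08-fold (1.62 ± 0.095) and 1.45-fold (0.53 ± 0.094). BNIP3 in DU145 rose with gRNA10, from 146, 140 and 142 CPM to 271, 276 and 278 (0.94 ± 0.22, adjusted p = 0.00596). With gRNA2 the DU145 libraries of BNIP3 were at 181, 148 and 315 CPM, all above the control, and the change of 0.59 ± 0.22 had an adjusted p of 0.0573, while without replicate 3 it was 0.21 ± 0.078 (adjusted p = 0.0399). NDRG1 in DU145 overlapped the control with gRNA2, at 199, 99.9 and 74.2 CPM against 198, 172 and 143, and missed the threshold (adjusted p = 0.243; 0.00302 without replicate 1, at -0.97). With gRNA10 its libraries, at 270, 254 and 226 CPM, all lay above the control, and the change of 0.55 ± 0.29 missed the threshold (adjusted p = 0.155) but passed it with a replicate block, without gRNA2 replicate 1 or 3, and with only the groups compared (0.00104).

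NDRG1 was the member with the largest difference between guides in 22Rv1. It was at 20.6, 18.4 and 23.4 CPM in the control, at 12.9, 14.6 and 13.9 with gRNA1 and at 68.8, 62.8 and 63.6 with gRNA10. That was 1.51-fold lower with gRNA1 (-0.59 ± 0.11) and 3.13-fold higher with gRNA10 (1.65 ± 0.11), and the guides differed by 2.24 ± 0.11 (adjusted p = 1.87e-07). BNIP3 in 22Rv1 fell with gRNA1, from 41.9, 42.9 and 38.7 CPM to 22.0, 22.9 and 33.7 (-0.65 ± 0.15), and BNIP3L fell by 1.43-fold with gRNA1 and 1.42-fold with gRNA10. DDIT4 in 22Rv1 passed the test with neither guide when all 9 libraries were fitted, and passed with gRNA10 without gRNA1 replicate 3 and with only the groups compared.

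**Figure D2:**
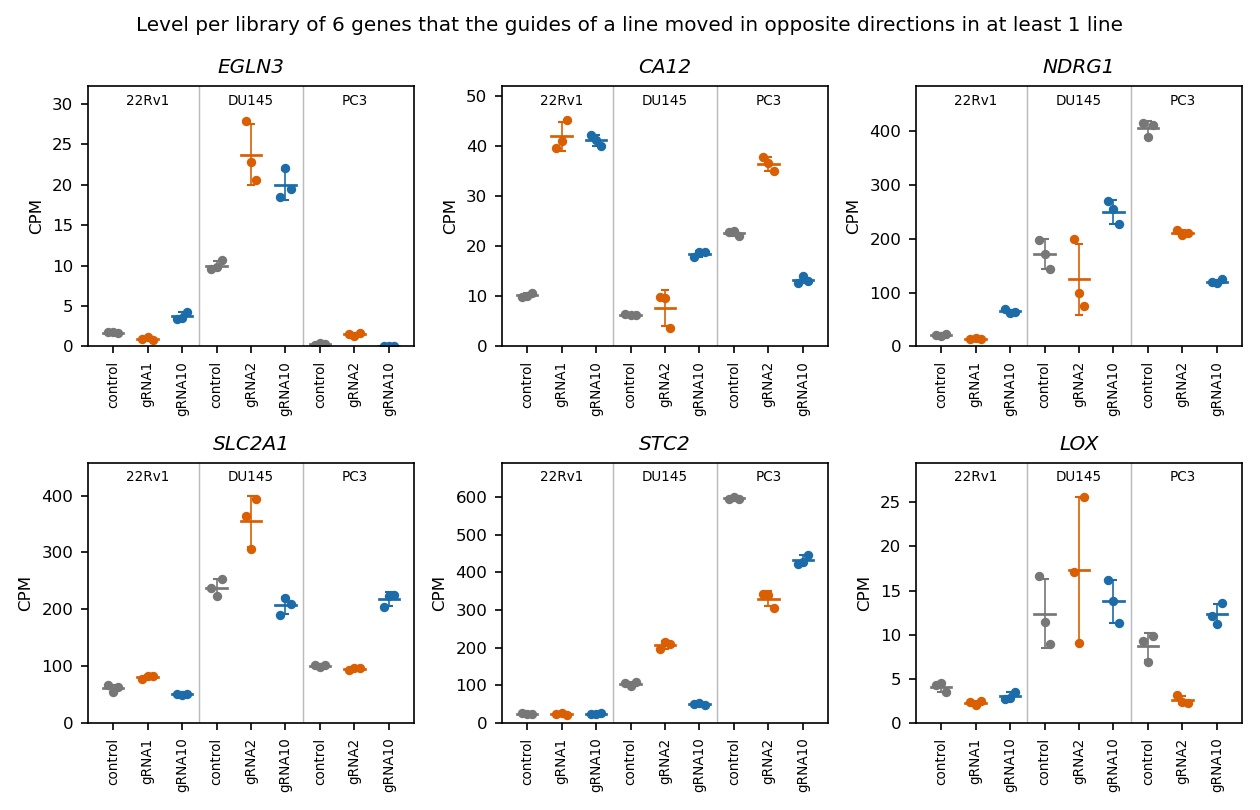
CPM of EGLN3, CA12, NDRG1, SLC2A1, STC2 and LOX in each of the 27 libraries (points), with the group mean (line) and SD (bars), in grey for the control, orange for gRNA1 or gRNA2 and blue for gRNA10. In at least 1 line the orange and blue groups lie on opposite sides of the grey group, as STC2 in DU145 does at 196 to 216 and 48.6 to 54.0 CPM around a control of 98.6 to 108.

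Glucose entry and its regulation came next. SLC2A1 (GLUT1) and SLC2A3 (GLUT3) carry glucose into the cell, PFKFB3 and PFKFB4 make and break the fructose 2,6-bisphosphate that drives phosphofructokinase, and PDK1 shuts pyruvate out of the mitochondrial citric acid cycle. SLC2A1 in PC3 was at 102, 98.5 and 102 CPM in the control, at 92.6, 97.4 and 97.03 with gRNA2 and at 203, 224 and 225 with gRNA10. The rise with gRNA10 was 2.15-fold (1.11 ± 0.042, adjusted p = 1.56e-20), and the change with gRNA2 was -0.077 ± 0.044 (adjusted p = 0.123). In DU145 the order was reversed: SLC2A1 was at 237, 223 and 253 CPM in the control, at 364, 306 and 394 with gRNA2 (1.49-fold higher) and at 191, 220 and 210 with gRNA10 (adjusted p = 0.154, but 0.0369 without gRNA2 replicate 3 and 0.00461 with only the groups compared). The guides differed by -0.78 ± 0.10 in DU145 and by 1.18 ± 0.042 in PC3. In 22Rv1 it was at 66.6, 54.7 and 62.3 CPM in the control, at 76.9, 83.2 and 83.0 with gRNA1 (1.32-fold higher) and at 51.3, 49.3 and 50.4 with gRNA10 (1.22-fold lower).

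SLC2A3 was near the floor in nearly all groups, with 0 counts in all 6 PC3 knockout libraries. In DU145 with gRNA10 it stood at 3.83, 3.29 and 3.05 CPM, 203 counts, against 0.192, 0.288 and 0.293 CPM, 16 counts, in the control. The ratio of counts was 13.2 (95% counting interval 7.92 to 23.5), and the edgeR change was 3.69 ± 0.44. In DU145 SLC2A3 passed the filter on low counts only through these gRNA10 libraries, where it is high. Its call is in the counts of higher members above, but its test is no separate support for the rise. In 22Rv1 with gRNA1 SLC2A3 had 33 counts against 5 in the control, a ratio of 6.83 (2.65 to 22.4). They were spread unevenly over replicates at 0.905, 0.162 and 0.773 CPM. SLC2A3 and its paralog SLC2A14 are nearly identical, so their reads may have been split between them.

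PFKFB3 in PC3 was at 52.5, 53.9 and 53.4 CPM in the control, at 55.9, 54.5 and 50.3 with gRNA2 and at 107, 115 and 112 with gRNA10. It rose 2.09-fold with gRNA10 (1.06 ± 0.046), in the libraries in which SLC2A1 was also higher. PFKFB4 moved less, by 1.19-fold up with gRNA2 and 1.21-fold down with gRNA10 in PC3. PFKFB3 made up 51.8% ± 0.611 of the PFKFB3 and PFKFB4 signal per kilobase in control PC3 and 73.1% ± 0.430 with gRNA10. PDK1 in PC3 was at 37.2, 36.4 and 39.7 CPM in the control and at 17.3, 19.2 and 19.95 with gRNA10, a fall of 2.01-fold (-1.0 ± 0.064), and overlapped the control with gRNA2 at 38.0, 34.0 and 34.4 CPM. In DU145 PDK1 rose, from 24.5, 21.05 and 20.8 CPM to 35.5, 37.1 and 47.6 with gRNA2 (1.81-fold) and to 32.6, 28.4 and 29.4 with gRNA10 (1.36-fold). In 22Rv1 PDK1 passed the test with neither guide (adjusted p = 0.122 and 0.0782), but did without gRNA1 replicate 1 (0.0443, gRNA1) and, for gRNA10, without gRNA1 replicate 3 (0.0102) or with only the groups compared (0.0127).

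The enzymes of the pathway itself, 15 members from hexokinase to pyruvate kinase, mostly fell in PC3. With gRNA2, 12 of 15 were lower and 1 higher, and with gRNA10, 11 were lower and 3 higher, with median log2 fold changes of -0.24 and -0.51, against 31.5% and 35.6% of all genes lower and 32.1% and 37.9% higher. In 22Rv1 8 of 15 were higher and 2 lower with gRNA1 (25.6% and 22.9% of all genes), and 6 higher and 2 lower with gRNA10 (20.0% and 20.6%). In DU145 3 of 15 were higher and 0 lower with gRNA2 (17.1% and 17.0% of all genes), and 5 higher and 1 lower with gRNA10 (20.2% and 19.8%). Several of these genes (GAPDH, PGK1, LDHA, ENO1, ALDOA, TPI1 and PGAM1) have processed pseudogenes that are nearly identical in sequence, and how such reads were counted is not given in the sources used here.

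HK2, the hypoxia-inducible hexokinase that traps glucose in the cell, fell most among these enzymes in PC3. It was at 185, 193 and 183 CPM in the control, at 110, 112 and 108 with gRNA2 and at 52.5, 56.4 and 53.0 with gRNA10. The falls were 1.70-fold and 3.46-fold (-0.76 ± 0.039 and -1.79 ± 0.042, adjusted p = 8.16e-17 and 7.18e-26). HK1, the constitutive hexokinase, went from 554, 565 and 564 CPM to 363, 366 and 366 with gRNA10 (1.54-fold lower). Per kilobase, HK2 was 20.8% ± 0.415 of the hexokinase signal in control PC3, 14.0% ± 0.283 with gRNA2 and 10.4% ± 0.343 with gRNA10. In DU145 HK2 rose with gRNA2, from 33.2, 32.2 and 31.4 CPM to 50.8, 50.5 and 97.9 (1.04 ± 0.22), and by 0.65 ± 0.078 without replicate 3. In 22Rv1 HK2 fell with gRNA1, from 158, 153 and 146 CPM to 110, 114 and 78.1 (-0.59 ± 0.13). HK1 fell there with gRNA10, from 186, 171 and 177 CPM to 108, 108 and 109 (-0.72, adjusted p = 0.00165). With gRNA1 its change of -0.22 missed the threshold (adjusted p = 0.191).

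PFKP, the platelet-type phosphofructokinase, had the largest change of the members tested in 22Rv1 with gRNA1. It was at 4.05, 3.17 and 4.18 CPM in the control, at 19.5, 17.4 and 29.4 with gRNA1 and at 12.2, 12.3 and 13.1 with gRNA10. It rose 5.80-fold (2.54 ± 0.21) and 3.29-fold (1.72 ± 0.21), with adjusted p = 4.45e-06 and 7.83e-05, and by 2.27 ± 0.13 with gRNA1 without replicate 3. It nevertheless remained a minor isozyme there, at 0.867% ± 0.038 of phosphofructokinase signal per kilobase in the control and 3.71% ± 0.771 with gRNA1. In PC3 PFKP was at 108, 112 and 113 CPM in the control, at 116, 112 and 110 with gRNA2 and at 280, 276 and 281 with gRNA10. The rise of 2.52-fold with gRNA10 (1.33 ± 0.037) took it from 15.5% ± 0.436 to 38.8% ± 0.522 of the phosphofructokinase signal. PFKL, the liver-type isozyme, fell with both guides in PC3, by 1.48-fold and 1.43-fold, and PFKM by 1.22-fold and 1.19-fold. In DU145 PFKP was lower with gRNA10 by 1.33-fold. PFKP and PFKFB3, both higher in PC3 with gRNA10, have promoter windows on chromosome 10 that start at 3067720 and 6144671. The other members with a window on that chromosome are HK1, DDIT4, P4HA1, PGAM1 and BNIP3. Their windows start at 69269750 or beyond, and all were lower in PC3 with gRNA10. The part of position in these changes was not tested.

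Most of the middle of the pathway fell in PC3. PGK1, which makes the first ATP of glycolysis, was at 1282, 1176 and 1237 CPM in the control, at 777, 728 and 754 with gRNA2 and at 616, 580 and 607 with gRNA10. It fell by 1.64-fold and 2.05-fold (-0.71 ± 0.037 and -1.03 ± 0.037). TPI1 fell by 1.33-fold and 1.45-fold, PGAM1 by 1.18-fold and 1.54-fold, GPI by 1.15-fold and 1.34-fold, and ALDOC by 1.37-fold and 1.46-fold. GAPDH, often used as a reference gene, was at 2931, 2832 and 2919 CPM in control PC3, at 2479, 2450 and 2568 with gRNA2 and at 2089, 1896 and 2115 with gRNA10, and fell by 1.16-fold and 1.42-fold. ALDOA fell with gRNA2 (1.21-fold) and differed by -0.046 ± 0.034 with gRNA10 (adjusted p = 0.231). ENO1 was the enzyme called higher with gRNA2, and rose with both guides, by 1.21-fold and 1.22-fold in PC3, from 1873, 1781 and 1800 CPM to 2229, 2154 and 2224 with gRNA2. PKM fell by 1.08-fold and 1.07-fold.

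GAPDH rose in the other lines. In DU145 it was at 1639, 1576 and 1690 CPM in the control, at 3010, 2203 and 4863 with gRNA2 and at 3129, 3297 and 3218 with gRNA10. It rose 2.05-fold and 1.97-fold (1.04 ± 0.23 and 0.98 ± 0.23), and by 0.68 ± 0.098 with gRNA2 without replicate 3. In 22Rv1 it was at 4011, 3544 and 3951 CPM in the control, at 5891, 6354 and 6081 with gRNA1 and at 5368, 5089 and 4959 with gRNA10 (1.59-fold and 1.34-fold higher). TPI1, its neighbour in the pathway, was higher in 22Rv1 by 1.58-fold and 1.35-fold. GAPDH, TPI1 and ENO2, all higher with both guides in 22Rv1, lie close together on chromosome 12. Their promoter windows start at 6535014, 6867281 and 6914330. Of the other members with a window on that chromosome, PFKM was also higher with both guides in 22Rv1 and LDHB lower. The part of position in these changes was not tested.

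Isozymes that are minor in their line also moved. ENO2, the neuron-type enolase, was at 73.8, 68.8 and 79.7 CPM in control 22Rv1, at 262, 277 and 412 with gRNA1 and at 130, 117 and 120 with gRNA10. It rose 4.28-fold and 1.65-fold (2.10 ± 0.16 and 0.72 ± 0.16), and by 1.85 ± 0.079 with gRNA1 without replicate 3. Its share of enolase signal per kilobase went from 4.14% ± 0.183 to 18.5% ± 5.48 with gRNA1 and 7.76% ± 0.108 with gRNA10. ALDOC in DU145 was at 4.85, 4.12 and 4.54 CPM in the control, at 3.08, 2.68 and 6.36 with gRNA2 and at 40.1, 44.9 and 38.2 with gRNA10. It rose 9.10-fold with gRNA10 (3.19 ± 0.25, adjusted p = 9.04e-06), while remaining 1.82% ± 0.0755 of aldolase signal. With gRNA2 the ALDOC change of -0.17 ± 0.27 became -0.64 ± 0.16 without replicate 3 (adjusted p = 0.0048).

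**Figure D3:**
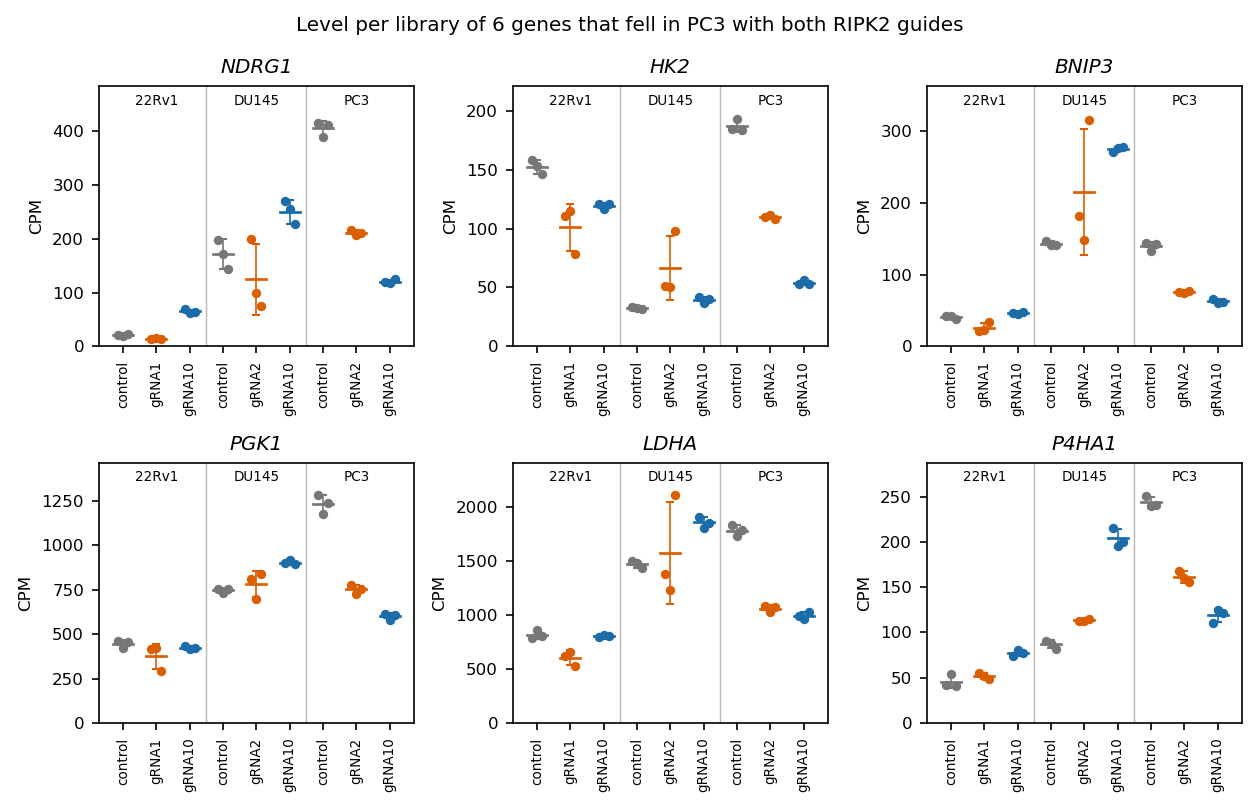
CPM of NDRG1, HK2, BNIP3, PGK1, LDHA and P4HA1 in each of the 27 libraries (points), with the group mean (line) and SD (bars), in grey for the control, orange for gRNA1 or gRNA2 and blue for gRNA10. In PC3 all knockout libraries of the 6 genes lie under all control libraries, as NDRG1 does at 117 to 216 against 389 to 415 CPM.

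The last step makes and exports lactate. LDHA favours lactate formation, LDHB favours the return to pyruvate, and SLC16A3 (MCT4) exports lactate from glycolytic cells. LDHA in PC3 was at 1830, 1728 and 1786 CPM in the control, at 1081, 1023 and 1069 with gRNA2 and at 986, 966 and 1029 with gRNA10. It fell by 1.68-fold and 1.79-fold (-0.75 ± 0.035 and -0.84 ± 0.035, adjusted p = 7.5e-18 and 1.87e-19). LDHB did not follow with gRNA2, at 423, 387 and 419 CPM against 423, 383 and 410 in the control (adjusted p = 0.779), and fell by 1.79-fold with gRNA10, to 224, 220 and 236 CPM. LDHB therefore made up 29.9% ± 0.482 of the LDHA and LDHB signal per kilobase in control PC3, 42.0% ± 0.489 with gRNA2 and 29.9% ± 0.101 with gRNA10.

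LDHA in 22Rv1 fell with gRNA1, from 785, 856 and 807 CPM to 622, 661 and 527 (-0.44 ± 0.095), and was at 796, 815 and 809 with gRNA10 (adjusted p = 0.903). LDHB fell there by 1.33-fold with gRNA1 and 1.3-fold with gRNA10. In DU145 LDHA was at 1496, 1477 and 1435 CPM in the control, at 1382, 1229 and 2113 with gRNA2 and at 1911, 1809 and 1851 with gRNA10. The gRNA2 group straddled the control, with a change of 0.10 ± 0.17 that became -0.17 ± 0.065 without replicate 3. The gRNA10 libraries all lay above the control, and the change of 0.34 ± 0.17 missed the threshold (adjusted p = 0.137), whereas it passed without gRNA2 replicate 3 in the fit (adjusted p = 0.000212) and with only the groups compared (7.39e-07). SLC16A3 rose by 1.26-fold and 1.36-fold in PC3, from 268, 271 and 278 CPM to 345, 346 and 340 with gRNA2 and to 381, 359 and 373 with gRNA10. In 22Rv1 it was at 7.47, 5 and 8.47 CPM in the control, at 12.2, 12.3 and 25.6 with gRNA1 and at 12.6, 11.6 and 12.9 with gRNA10. The changes there were 1.26 ± 0.29 and 0.83 ± 0.29, and the former was 0.80 ± 0.17 without replicate 3 of gRNA1. In DU145 SLC16A3 passed the test with neither guide when all 9 libraries were fitted (0.27 and -0.27, adjusted p = 0.245 and 0.227), but did with gRNA2 without gRNA2 replicate 2 (0.0106) and with gRNA10 with only the groups compared (0.0111).

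**Figure D4:**
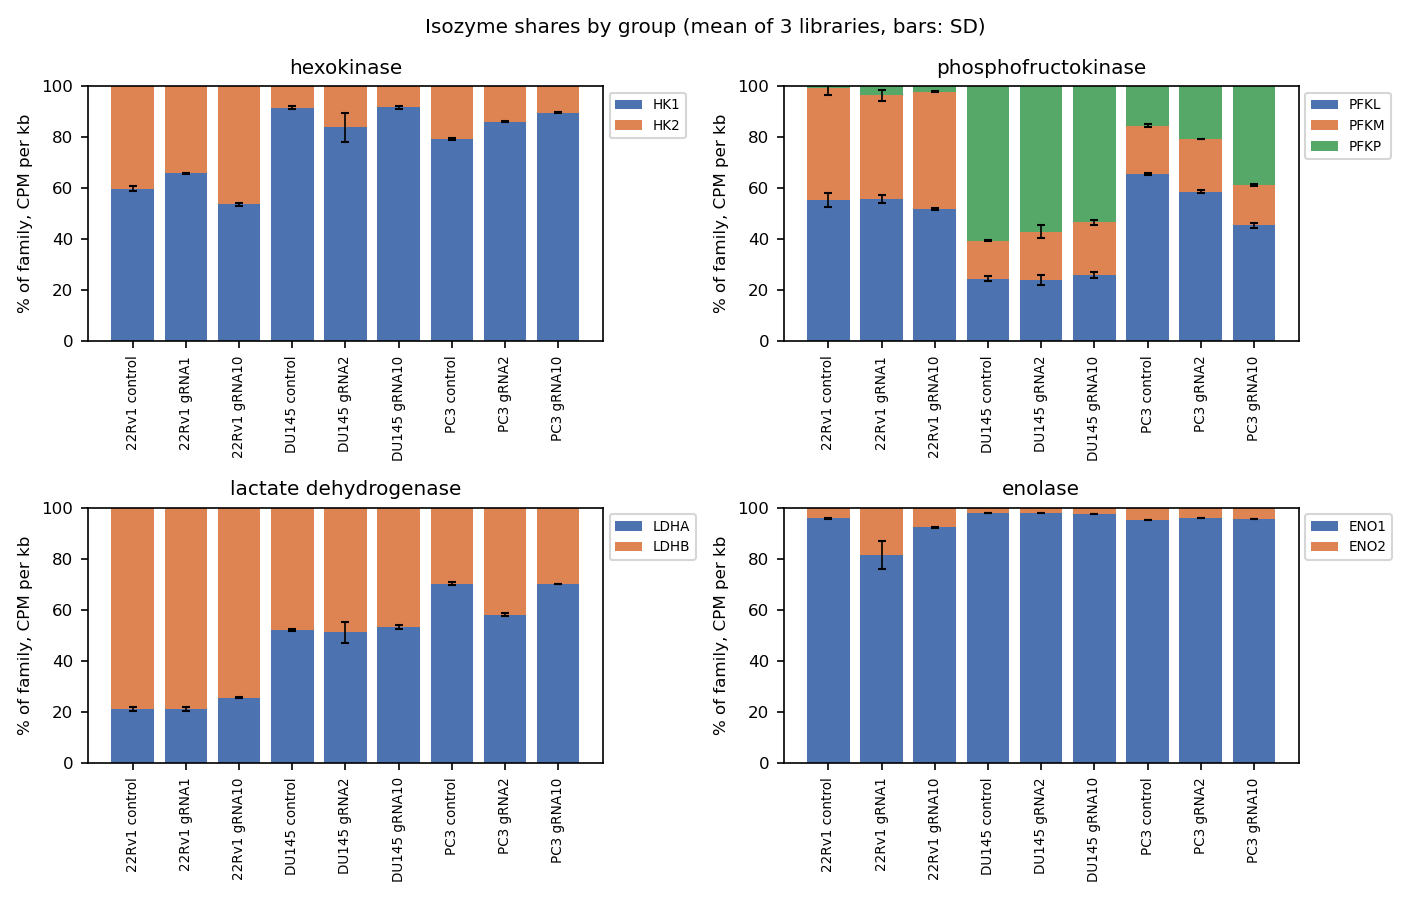
Share of each isozyme (percent of the summed CPM per kilobase of exon) of hexokinase, phosphofructokinase, lactate dehydrogenase and enolase in the 9 groups, as means of 3 libraries with SD bars. PFKP takes 38.8% of phosphofructokinase in PC3 with gRNA10 against 15.5% in the control, and ENO2 18.5% of enolase in 22Rv1 with gRNA1 against 4.14%.

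Several edgeR calls rested on a small margin. Leaving out any of the 3 control or 3 gRNA10 libraries ended the call of HK2 in 22Rv1 with gRNA10 (0.0496, then 0.0814 to 0.141 as adjusted p), and those of PFKM (0.0383, then 0.0657 to 0.124), PGK1 (0.0292, then 0.0765 to 0.108) and LDHB (0.0415, then 0.102 to 0.125) in DU145 with gRNA10. HK2 in 22Rv1 with gRNA10 also lost its call without gRNA1 replicate 1 (0.0509). SLC2A1 in 22Rv1 with gRNA10 lost its call without control replicates 1 or 3, gRNA1 replicate 2 or any gRNA10 library (adjusted p 0.0522 to 0.14). SLC16A3 in 22Rv1 with gRNA10 lost it without control replicates 1 or 2 or any gRNA10 library (0.0723 to 0.157), and LDHB there without control replicate 3 or any gRNA10 library (0.0559 to 0.067). GPI in 22Rv1 with gRNA1 lost its call without any 1 of the 3 controls, gRNA1 replicates 1 or 2 or any gRNA10 library (0.0703 to 0.14). ENO1 there lost it without control replicates 1 or 3, gRNA1 replicate 1 or any gRNA10 library (0.0529 to 0.109), and PFKFB3 without control replicates 1 or 3 (0.0507 and 0.0609). ADM in 22Rv1 with gRNA1 lost it without any control library (0.0532 to 0.0561). In DU145, PDK1 with gRNA10 lost its call without control replicates 2 or 3 or gRNA10 replicate 1 (0.0739 to 0.0764), HK1 with gRNA10 without control replicate 2 (0.0636), and P4HA2 with gRNA2 without any control or gRNA10 library or gRNA2 replicate 1 (0.0533 to 0.121). In PC3 with gRNA2, HK1 lost it without control replicates 2 or 3 or any gRNA2 library (0.0515 to 0.14), and EGLN1 without replicate 2 of the control or of gRNA2 (0.0878 and 0.0937).

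The libraries that stood apart carried part of several changes, as the plot of values with and without them shows. In DU145 with gRNA2, removing replicate 3 left 14 members higher and 4 lower, where the 4 were ADM, PFKFB4, ALDOC and LDHA, named here after their values were seen. EGLN3 (1.25 and 1.34), DDIT4 (1.62 and 1.57), STC2 (1.00 and 0.99) and P4HA1 (0.38 and 0.37) differed little with and without it. In 22Rv1 with gRNA1, 14 members were higher and 12 lower without replicate 3. These counts are given here without the shares of all genes in the same fits, so they do not compare members with all genes. The part of the mitochondrial share in these changes was not tested.

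**Figure D5:**
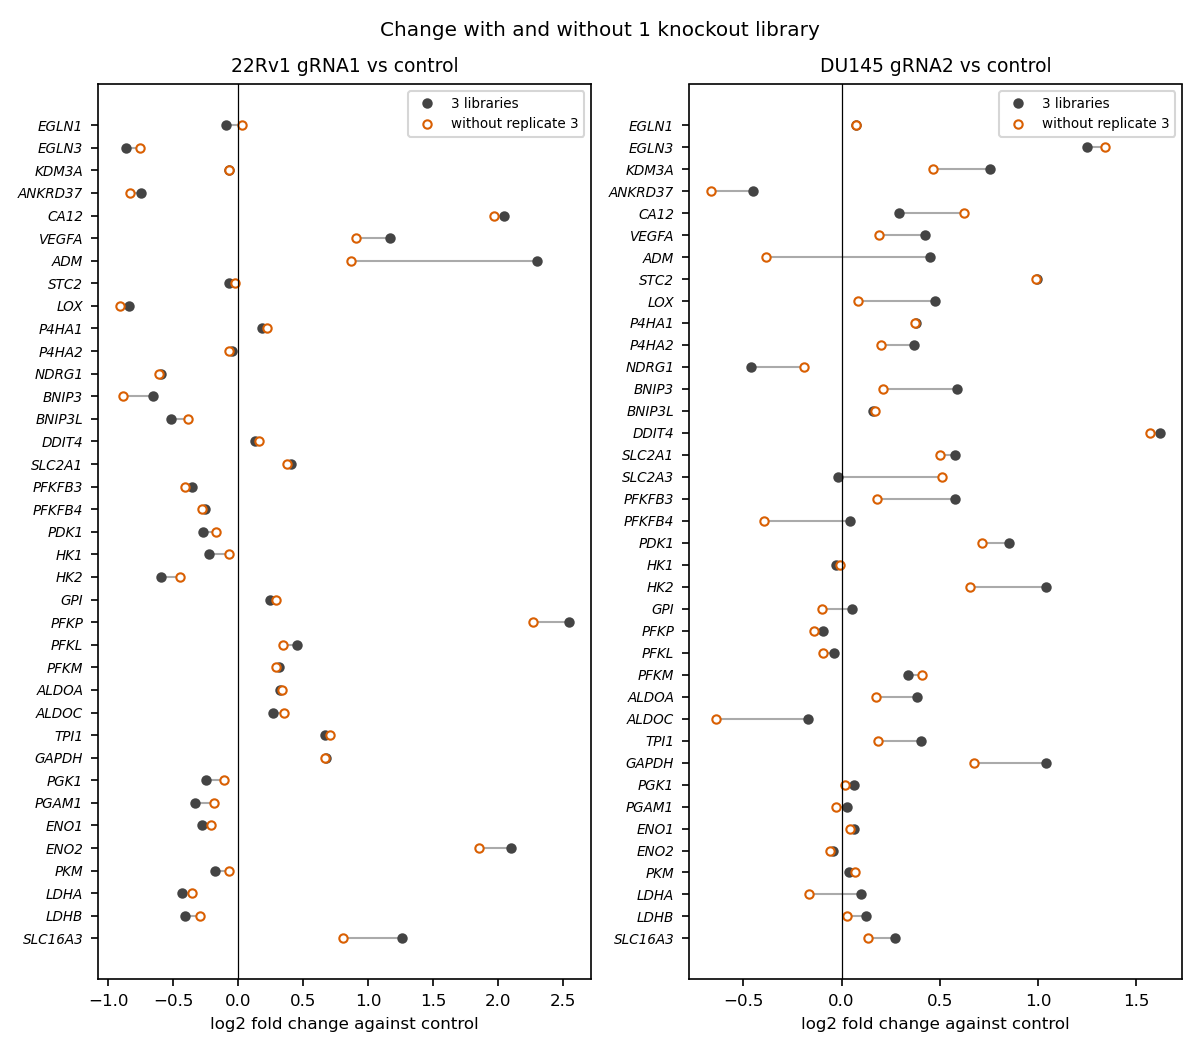
Log2 fold change of each tested member in 22Rv1 with gRNA1 and in DU145 with gRNA2, with all 3 libraries (filled points) and without replicate 3 (open points), joined by a line. ADM moves most in both panels, from 2.30 to 0.87 in 22Rv1 and from 0.45 to -0.39 in DU145.

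The guides of a line were also compared directly. In 22Rv1 13 of 37 members differed between gRNA10 and gRNA1 (35.1%), near the 35.6% of all genes, and in DU145 15 of 38 differed between gRNA10 and gRNA2 (39.5%), near the 38.8% of all genes. Without gRNA2 replicate 3 the DU145 count was 26 of 38, against 47.9% of all genes. In PC3 29 of 37 differed (78.4%), against 73.4% of all genes, with 13 higher and 16 lower with gRNA10.

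The lines were compared in a model of all 27 libraries, in which 38 members were tested and the knockout effect was the mean of both guides minus the control. That mean was over gRNA1 and gRNA10 in 22Rv1, but over gRNA2 and gRNA10 in DU145 and PC3. Line and guide are therefore partly mixed in the comparisons with 22Rv1. Between PC3 and DU145 the knockout effect differed for 30 of 38 members (4 higher and 26 lower in PC3), where 42.2% of 16322 genes differed in either direction. Between PC3 and 22Rv1 it differed for 27 (4 higher and 23 lower in PC3), against 45.3% of genes. Between DU145 and 22Rv1 it differed for 23 (17 higher and 6 lower in DU145), against 47.1%. These shares of all genes are for either direction. The median log2 difference of the members was -0.648, -0.603 and 0.276 in the same order, against -0.0126, -0.0316 and -0.00209 for all genes. DDIT4 had an effect of -0.92 in PC3 and 1.08 in DU145, a difference of -2.01 ± 0.13 (adjusted p = 6.78e-12). HK2 had an effect of -1.28 in PC3 and 0.66 in DU145, a difference of -1.96 ± 0.20 (adjusted p = 1.38e-08). P4HA1 had an effect of -0.82 in PC3 and 0.80 in DU145, a difference of -1.63 ± 0.10 (adjusted p = 2.02e-12). The effect on PFKP differed by -2.38 ± 0.17 between DU145 and 22Rv1, where it was -0.25 and 2.13.

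Control levels differed between lines for most members, as they did for most genes. DU145 and 22Rv1 controls differed for 36 of 38 members (75.9% of all genes), with 28 higher in DU145. PC3 and 22Rv1 controls differed for 32 (80.5% of genes), with 27 higher in PC3. PC3 and DU145 controls differed for 31 (75.9% of genes), with 15 higher and 16 lower in PC3. Median log2 differences of the members were 1.13, 0.887 and -0.177 in the same order, against -0.00574, -0.0384 and -0.0315 for all genes. Line and library set cannot be told apart here. On the scale of the 27-library model, SLC16A3 averaged 6.77 ± 1.74 CPM (SD, n = 3) in control 22Rv1, 444 ± 36.9 in DU145 and 294 ± 5.15 in PC3. PFKP averaged 3.69 ± 0.545, 449 ± 13.6 and 120 ± 2.33 in the same order, and was 60.6% ± 0.748 of phosphofructokinase signal per kilobase in DU145. VEGFA was highest in DU145, at 256 ± 22.0 CPM, and did not differ beyond the threshold between 22Rv1 and PC3 (42.3 ± 1.37 and 51.5 ± 0.817, adjusted p = 0.0797). LDHB was highest in 22Rv1, where it was 78.9% ± 0.845 of the LDHA and LDHB signal per kilobase, against 48.0% ± 0.356 in DU145. GAPDH averaged 3719 ± 267 in 22Rv1, 1588 ± 55.1 in DU145 and 3118 ± 63.8 in PC3, where 22Rv1 and PC3 did not differ beyond the threshold (adjusted p = 0.124).

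The regulators of the pathway, 18 listed genes of which 17 were tested, went both ways. In PC3 7 were higher and 5 lower with gRNA2, and 11 higher and 3 lower with gRNA10, with median log2 fold changes of 0.013 and 0.13, against 32.1% and 37.9% of all genes higher and 31.5% and 35.6% lower. HIF1A, the main alpha subunit, averaged 426 ± 26.5 CPM (SD, n = 3) in control PC3, 512 ± 21.2 with gRNA2 and 268 ± 8.43 with gRNA10. It was thus higher with gRNA2 (0.26 ± 0.041) and lower with gRNA10 (-0.67 ± 0.042). EPAS1, the HIF2 alpha subunit, went in PC3 from 1.73 ± 0.273 CPM to 69.2 ± 4.65 with gRNA2 (5.32 ± 0.094) and 6.23 ± 0.330 with gRNA10 (1.85 ± 0.15), and rose in DU145 with gRNA10 (0.86 ± 0.19). CITED2, which competes with HIF for its coactivators, fell in PC3 (-0.90 and -1.38) and in DU145 (-1.36 and -0.81), and rose in 22Rv1 (0.51 and 0.63). ARNT2, a partner of the alpha subunits, rose in DU145 (0.68 and 1.62) and PC3 (0.56 and 1.81), and fell in 22Rv1 with gRNA1 (-0.34 ± 0.1). VHL fell in 22Rv1 with both guides (-1.03 ± 0.17 and -0.93 ± 0.17) and was higher in PC3 with gRNA10 (0.12 ± 0.041). ARNT, the common partner, was higher in PC3 by 0.12 ± 0.048 and 0.11 ± 0.048 and passed the test in neither of the other lines. In DU145 HIF1A differed by 0.017 ± 0.17 and -0.0023 ± 0.17. In 22Rv1 HIF1A fell with gRNA1 (-0.93 ± 0.18). Of these 17 regulators, 2 were higher and 6 lower with gRNA1 in 22Rv1 (25.6% and 22.9% of all genes), and 1 higher and 3 lower with gRNA10 (20.0% and 20.6%). In DU145 1 was higher and 3 lower with gRNA2 (17.1% and 17.0% of all genes), and 3 higher and 7 lower with gRNA10 (20.2% and 19.8%).

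Other hypoxia-inducible genes, 34 listed, were lower in PC3 for 15 of 32 tested with gRNA2 and 23 with gRNA10, and higher for 8 and 4, against 31.5% and 35.6% of all genes lower and 32.1% and 37.9% higher. In DU145 8 of 33 were higher and 8 lower with gRNA2 (17.1% and 17.0% of all genes), and 12 higher and 5 lower with gRNA10 (20.2% and 19.8%). In 22Rv1 10 of 31 were higher and 14 lower with gRNA1 (25.6% and 22.9% of all genes), and 9 higher and 9 lower with gRNA10 (20.0% and 20.6%). ANGPTL4, a lipase inhibitor induced by hypoxia and by PPAR factors, was lower in all 6 contrasts (-1.68 and -1.33 in 22Rv1, -3.32 and -2.98 in DU145, -0.90 and -2.31 in PC3). IGFBP3, which binds insulin-like growth factors, rose in 22Rv1 (3.95 ± 0.15 and 0.72 ± 0.14) and parted by guide in PC3 (2.52 ± 0.063 and -1.24 ± 0.099). BHLHE41, a transcriptional repressor, rose from 1.84 ± 0.570 to 185 ± 28.5 CPM in 22Rv1 with gRNA1 (6.65 ± 0.2). It rose less there with gRNA10 (1.48 ± 0.21), and fell in PC3 (-0.47 and -2.18).

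The remaining glycolysis and pyruvate genes, 44 listed, went both ways. In PC3 18 of 38 were higher and 12 lower with gRNA2 (32.1% and 31.5% of all genes), and 17 higher and 15 lower with gRNA10 (37.9% and 35.6%). In DU145 6 of 38 were higher and 8 lower with gRNA2 (17.1% and 17.0%), and 8 higher and 10 lower with gRNA10 (20.2% and 19.8%). In 22Rv1 10 of 37 were higher and 11 lower with gRNA1 (25.6% and 22.9%), and 6 higher and 12 lower with gRNA10 (20.0% and 20.6%). LDHD, a mitochondrial D-lactate dehydrogenase, was lower in all 6 contrasts (-0.82 and -0.76 in 22Rv1, -1.25 and -2.0 in DU145, -0.34 and -0.63 in PC3). SLC16A7 (MCT2), a high-affinity carrier of lactate and pyruvate, rose in DU145 with gRNA10 (1.95 ± 0.34) and fell in PC3 with gRNA10 (-1.83 ± 0.14). It was higher in PC3 with gRNA2 (0.3 ± 0.1) and lower in 22Rv1 with gRNA1 (-0.82 ± 0.2). SLC2A12, a glucose transporter, fell in 22Rv1 (-0.94 and -1.28) and in DU145 with gRNA2 (-1.0 ± 0.3). In PC3 it fell with gRNA2 and rose with gRNA10 (-1.68 ± 0.13 and 0.41 ± 0.097).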

How the data were processed

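Sequencing was paired-end on DNBSEQ, from mRNA libraries of the 27 samples that kept the strand, per the labels' protocols. The submitters' processing notes name hg38, FastQC, STAR and edgeR, without versions or roles. The counting program and annotation are not given in the sources used here. For each line the authors deposited whole-number, unnormalized counts by gene symbol in 1 file, with 24385, 23534 and 23464 rows, in which 6, 2 and 2 duplicated symbols were summed here.

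Counts were tested with edgeR 4.0.16 in R 4.3.3 (TMM factors, filterByExpr with a minimum count of 10 and minimum total of 15, robust quasi-likelihood F test, two-sided), with the 9 libraries of a line fitted together (15198, 14908 and 14718 genes). Log2 fold changes are given with standard errors derived from the F statistic. Lines were compared in 1 model of 27 libraries over 16322 genes that passed the filter among 20089 shared symbols. A gene was called at a Benjamini-Hochberg adjusted p below 0.05. The tests recovered, in simulated gRNA10 contrasts, 93 of 100 genes changed 2-fold in 22Rv1, 87 in DU145 and 100 in PC3. Of 100 genes changed 1.5-fold they recovered 42, 53 and 99. False calls numbered 6, 15 and 16 in the same order. The rates are not split by count level, and so do not describe members at low counts. Recovery with the other guides, or with as many genes changed as were called here, was not tested. Alternatives were RLE factors, DESeq2 1.42.0, no filter, only the groups compared, a replicate block and leaving out each library. The 27 pairs of libraries within groups differed by more than counting noise (chi-square per degree of freedom 1.77 to 194, over genes with a summed count of at least 10). Isozyme shares used the exon length of GENCODE 29. Intervals of count ratios are exact at 95% and cover counting error only.

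Members were called by symbol, and the members and lists were chosen with earlier results of these data known. Values per library are given for up to 6 members per line called with both guides in the same direction, without overlap with the controls and with the largest mean change, for any called in 1 direction in all 6 guide contrasts (none was), for up to 3 per line called in opposite directions, and for CA9, VEGFA, SLC2A1, LDHA and PDK1. From each other list, up to 3 genes with the largest mean change are named, with HIF1A, EPAS1, ARNT and VHL. A group mean of 1 CPM was required. Library values of other members were added after their values were seen.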

Additional observations from a re-analysis of the deposited data

Results flagged for a closer look

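The knockout effect (mean of both guides minus control, log2) differed between lines by an interaction test in the model of 27 libraries, at an adjusted p below 0.05, for 20 members named by the rule, and for others that are not listed here, such as EGLN1. For each of the 20, the pair of lines with the largest difference is given. Between PC3 and DU145 the effect in PC3 was lower by the following differences: DDIT4 -2.01, HK2 -1.96, BNIP3 -1.80, P4HA1 -1.63, KDM3A -1.46, GAPDH -1.39, EGLN3 -1.21, PDK1 -1.21, PGK1 -1.06, LDHA -1.03 and STC2 -0.67. Between PC3 and 22Rv1 the effect in PC3 differed by -2.08 for CA12, -1.89 for NDRG1, -1.38 for ENO2, 0.67 for P4HA2 and 0.44 for SLC2A1. Between DU145 and 22Rv1 the effect in DU145 differed by -2.38 for PFKP, -1.29 for VEGFA, -1.04 for SLC16A3 and 0.95 for LOX.

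In several of these differences the guides of a line had fold changes of opposite sign, so that the mean of both describes neither guide: EGLN3, CA12, SLC2A1 and ENO2 in PC3, VEGFA, STC2 and SLC16A3 in DU145, and P4HA2, NDRG1 and SLC2A1 in 22Rv1. The values of VEGFA and SLC16A3 between DU145 and 22Rv1 therefore rest on such means. EGLN3 in PC3 rested on 20, 90 and 4 counts.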

How the results depend on the processing

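Of the recomputed counts and medians, 472 stayed within 1.5 times the reported count, or near the reported median, and 14 did not. With only the groups compared in the fit, lower members in 22Rv1 with gRNA10 numbered 9 in place of 5, and in DU145 with gRNA10 there were 27 higher and 5 lower in place of 16 and 3. Leaving out each library in turn gave 2 to 9 lower members in 22Rv1 with gRNA10, 10 to 18 higher and 0 to 4 lower in DU145 with gRNA2, 10 to 26 differing between the DU145 guides, and a PC3 gRNA10 median of -0.529 to -0.463. Of the members' fold changes, that of LDHA was among those that turned sign without 1 library, from -0.017 to 0.0187 in 22Rv1 with gRNA10 (without control replicate 2; range -0.0446 to 0.0187) and from 0.0996 to -0.167 in DU145 with gRNA2 (without gRNA2 replicate 3; range -0.167 to 0.254). Others without a call in the fit of all libraries turned sign too, such as ADM (0.449 to -0.386) and PFKFB4 (0.0439 to -0.395) in DU145 with gRNA2 without gRNA2 replicate 3. With no filter on low counts, calls ended for ADM, GPI, PFKM and ALDOA in 22Rv1 with gRNA1 (adjusted p = 0.0843, 0.238, 0.072 and 0.0898), for SLC2A1, SLC16A3 and HK2 with gRNA10 (0.0694, 0.066 and 0.0512), and for ADM, PFKM, PGK1 and LDHB in DU145 with gRNA10 (0.0803, 0.0824, 0.0735 and 0.0927). The cause of these shifts was not tested. In some groups the replicate numbers of the titles differ from those of the library names, and pairing by the latter was not tested. The replicate numbers of the titles did not pair the samples (same-number correlations from -0.306 to 0.443, 9 of 27 above 0.1). With them as a replicate block, 12 members were higher and 11 lower in 22Rv1 with gRNA1, 14 and 4 with gRNA10, 10 and 0 in DU145 with gRNA2, 14 and 3 with gRNA10, and the PC3 counts were 6 and 23 and 9 and 25. Counts in this paragraph are given without the shares of all genes in the same fits, and do not compare members with all genes. The block ended the calls of SLC2A1 in 22Rv1 with gRNA10 (0.0584), GPI in 22Rv1 with gRNA1 (0.0652), P4HA2 in DU145 with gRNA2 (0.0618) and PFKM, PGK1 and LDHB in DU145 with gRNA10 (0.0677, 0.0533 and 0.0663), and gave calls for NDRG1 in DU145 with gRNA10 and for PFKL (gRNA10) and PGAM1 (gRNA1) in 22Rv1. Low counts limit CA9 in all lines, SLC2A3 outside DU145 gRNA10 and EGLN3 in PC3.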
